A study of Rattus norvegicus with 6 samples.

Results

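Transcripts of 10 genes of the Sin3 histone deacetylase complex were followed in RNA pull-downs from the rat pituitary tumour line GH4C1, which makes growth hormone and prolactin. The genes were Sap30, Sap30l, Sap18, Sin3a, Sin3b, Hdac1, Hdac2, Rbbp4, Rbbp7 and Suds3. They were taken by gene name, and each name matched 1 of the 32883 rows of the deposited count table. The group was chosen by the measured fold change of Sap30, whose recovery differed widely between the pull-downs, and the other 9 genes were added as its partners in the complex. The difference of Sap30 between the pools is therefore a description and was not tested.

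The study sought RNAs bound directly by Neat1, the long noncoding RNA on which the nuclear bodies called paraspeckles are built. Wild-type cells were treated with psoralen, which crosslinks base-paired strands, and RNA was then pulled down with oligo pool A or oligo pool B. Each pool had 3 libraries, all from the same psoralen-treated line, and the labels name no other agent, genotype or time. The target positions of each pool, and whether either served as a control, are not given in the sources used here, and neither is whether libraries came from separate cultures. P-values then measure only the spread between these libraries, which may be technical.

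The Sin3 complex removes acetyl groups from histone tails and is best known as a corepressor that DNA-binding factors bring to their target genes. Sin3a and Sin3b are alternative scaffolds, Hdac1 and Hdac2 are the deacetylases, and Rbbp4 and Rbbp7 are WD-repeat proteins that hold histones. Sap30, Sap30l, Sap18 and Suds3 are accessory subunits that bind the scaffold or stabilise the enzyme. What was measured here is the recovery of their messenger RNAs, not protein or complex.

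Total counts per library lay between 1826390 and 3685899, a 2.02-fold range. Levels are given as CPM, the count scaled to the total count of the library, and not corrected for gene length, so they compare libraries and not genes. A count of 0 allows up to 3 counts, or between 0.814 and 1.64 CPM. A difference between the pools is one in how much of a transcript each pool recovered, and expression in the cells was not measured apart from it. These are bulk libraries, which also cannot tell fewer cells with a transcript from less of it per cell. Of the markers of the line, Gh1 had 170 ± 3 CPM (SD, n = 3) for pool A against 166 ± 19 CPM (SD, n = 3) for pool B. Prl was higher with pool A, with 713 ± 41 CPM (SD, n = 3) there and 445 ± 56 CPM (SD, n = 3) with pool B (log2 fold change 0.83 ± 0.14, SE, edgeR adjusted p = 1.26e-05). Pou1f1 had 158 ± 16 CPM (SD, n = 3) and 204 ± 32 CPM (SD, n = 3) and did not pass (log2 fold change -0.23 ± 0.15, SE, edgeR adjusted p = 0.245). The 3 markers summed to between 1011 and 1092 CPM with pool A and between 703 and 903 CPM with pool B. Of 6 markers of other pituitary endocrine cells, Tshb and Fshb were at 0 in all libraries. The 6 summed to between 13.4 and 26.0 CPM with pool A and between 48.2 and 51.5 CPM with pool B, mostly from Lhb, and the part of either marker group in the results below was not tested.

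All 10 transcripts were recovered with both pools, the lowest count being 14. They did not behave as a unit. Sap30 and Sap30l were many-fold higher with pool A, Sap18 and Hdac2 were several-fold higher, Sin3b differed slightly in the same direction and Rbbp7 slightly in the other. Sin3a, Hdac1, Rbbp4 and Suds3 did not pass the threshold, which was 0.05 for the adjusted p of edgeR's quasi-likelihood test over 11582 genes. Of the 9 genes other than Sap30, 4 (44.4%) were higher with pool A and 1 (11.1%) lower. Over all tested genes 40.6% passed, 18.6% higher with pool A and 22.0% lower. The median log2 fold change, pool A over pool B, was 0.79 over the 10 genes and 0.56 without Sap30, against 0.02 over all tested genes. With total counts as the only scaling the median of all tested genes was -0.13, with 1709 of them higher and 2922 lower with pool A. With upper-quartile factors it was 0.12, and the balance turned to 2515 higher and 2251 lower, from 2154 and 2546 with the scaling used here.

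**Figure D1:**
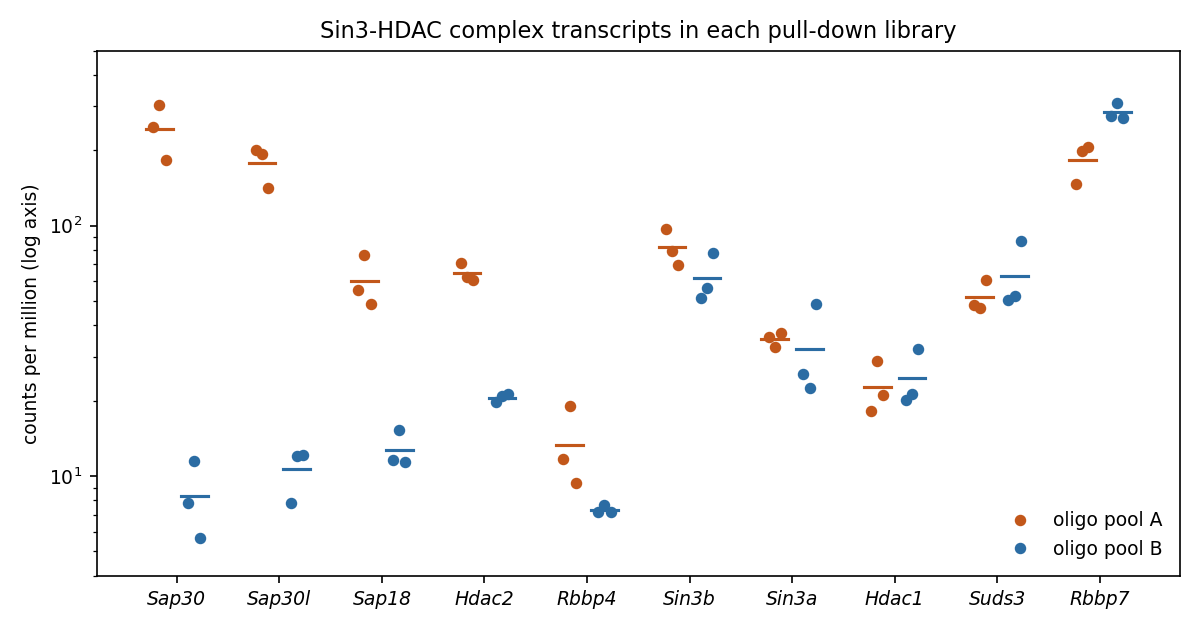
CPM (log axis) of the 10 complex transcripts in the 3 libraries of pool A and the 3 of pool B, with points for libraries and bars for means. The libraries of both pools are far apart for Sap30, Sap30l, Sap18 and Hdac2, and interleave for Sin3b, Sin3a, Hdac1 and Suds3.

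Among the accessory subunits, Sap30 (ENSRNOG00000013218) encodes an accessory protein that binds the scaffold. It had 247, 304 and 183 CPM with pool A replicates 1, 2 and 3, on 910, 768 and 582 counts. With pool B it had 7.84, 11.5 and 5.67 CPM, on 23, 21 and 15 counts. Every pool A library was above every pool B library by a wide margin. The pool means were 244 ± 61 CPM (SD, n = 3) and 8.34 ± 2.94 CPM (SD, n = 3), a ratio of 29.3, and the log2 fold change was 5.07 ± 0.25 (SE). This was the ninth value from the top of the 11582 tested genes, which is how the gene came to notice.

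Sap30l (ENSRNOG00000002575), the paralog of Sap30 and an alternative subunit of the same complex, showed nearly the same picture. It had 201, 194 and 141 CPM with pool A replicates 1, 2 and 3 and 7.84, 12.0 and 12.1 CPM with pool B. Again the pools did not overlap. The means were 179 ± 33 CPM (SD, n = 3) and 10.7 ± 2.4 CPM (SD, n = 3), a ratio of 16.8. The log2 fold change was 4.24 ± 0.23 (SE, edgeR adjusted p = 2.26e-14), and 32 of the 11582 tested genes had a larger one. Unlike that of Sap30, this value did not lead to the choice of genes, although it was available when they were chosen.

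Sap30 and Sap30l were the only members whose pool means lay more than 10-fold apart. The DNA just upstream of each start is shown as a description of the genes. Both pools were used on the same line, and a link between these sequences and the recovery was not tested. The sequences are those of RefSeq for the GRCr8 assembly, 250 bases before the annotated start, read 5′ to 3′ on the strand of the gene. Capitals mark the GC box GGGCGG and the CCAAT box CCAAT, each searched on both strands. The Sap30 window is chr16:37758244-37758493 on the plus strand and that of Sap30l chr10:42479951-42480200 on the plus strand.
Sap30: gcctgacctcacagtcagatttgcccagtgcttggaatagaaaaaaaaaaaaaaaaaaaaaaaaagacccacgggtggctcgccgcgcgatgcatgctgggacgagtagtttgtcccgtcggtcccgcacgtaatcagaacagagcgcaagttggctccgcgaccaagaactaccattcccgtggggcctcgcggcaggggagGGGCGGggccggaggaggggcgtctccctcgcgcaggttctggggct
Sap30l: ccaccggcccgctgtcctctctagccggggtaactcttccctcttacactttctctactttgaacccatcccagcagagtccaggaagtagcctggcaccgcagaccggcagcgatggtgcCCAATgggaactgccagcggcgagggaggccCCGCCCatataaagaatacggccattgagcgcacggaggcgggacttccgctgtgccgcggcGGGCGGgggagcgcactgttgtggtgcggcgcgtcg

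Sap30 has 1 GC box and no CCAAT box in this window, and Sap30l has 2 GC boxes and 1 CCAAT box. Both motifs are common, with the GC box in 30.5% and the CCAAT box in 34.0% of 33469 such windows. Among members that passed the threshold, Hdac2 has 1 GC box, Rbbp7 has 2 and Sin3b has none. Among those that did not pass, Hdac1 has 4, Sin3a and Rbbp4 have 2 each, and Suds3 has no GC box in either of its 2 windows. A CCAAT box also lies in the windows of Sin3a, Hdac1, Rbbp4 and Rbbp7 and in 1 of those of Suds3. Sin3b and Hdac2 have no CCAAT box. The table of upstream sequences held entries for 9 of the 10 members.

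Sap18 (ENSRNOG00000010732) encodes a small subunit that is shared with the ASAP and PSAP complexes of messenger RNA processing. It had 55.3, 76.3 and 48.6 CPM with pool A replicates 1, 2 and 3 and 11.6, 15.3 and 11.3 CPM with pool B, without overlap. The means were 60.1 ± 14.5 CPM (SD, n = 3) and 12.8 ± 2.2 CPM (SD, n = 3). Its log2 fold change was 2.40 ± 0.27 (SE, edgeR adjusted p = 3.08e-08).

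Suds3 (ENSRNOG00000001139), which encodes the subunit that supports deacetylase activity of the complex, stood apart from the other accessory subunits. It had 48.0, 47.1 and 60.9 CPM with pool A and 50.4, 52.6 and 86.6 CPM with pool B, so that the pools overlapped. The log2 fold change was -0.15 ± 0.22 (SE), with a 95% interval from -0.59 to 0.30 and an edgeR adjusted p of 0.627. Its sign turned to 0.16 without pool B replicate 3, the library with the highest value. A difference as large as that of Sap18 lies outside this interval.

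Among the deacetylases, Hdac2 (ENSRNOG00000000604) was clearly higher with pool A. It had 71.1, 62.5 and 60.5 CPM with pool A replicates 1, 2 and 3 and 19.8, 20.8 and 21.2 CPM with pool B, and its libraries were close together within each pool. The means were 64.7 ± 5.6 CPM (SD, n = 3) and 20.6 ± 0.7 CPM (SD, n = 3), a ratio of 3.14. The log2 fold change was 1.80 ± 0.22 (SE, edgeR adjusted p = 1.95e-07).

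Hdac1 (ENSRNOG00000009568), the other deacetylase of the complex, had 18.2, 28.9 and 21.0 CPM with pool A and 20.1, 21.4 and 32.2 CPM with pool B. The ranges of both pools covered nearly the same span. The log2 fold change was 0.02 ± 0.30 (SE), with a 95% interval from -0.60 to 0.64 and an edgeR adjusted p of 0.963. Its sign depended on the scaling, with -0.13 under total counts alone.

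Of the scaffold transcripts, Sin3b passed the threshold and Sin3a did not. Sin3a (ENSRNOG00000032254) had 36.1, 32.8 and 37.3 CPM with pool A and 25.6, 22.4 and 48.8 CPM with pool B. Pool B replicate 3 was above all pool A libraries and the other two of its pool were below them. The log2 fold change was 0.26 ± 0.27 (SE), with a 95% interval from -0.29 to 0.82 and an edgeR adjusted p of 0.472. Without pool B replicate 3 it was 0.70 (edgeR adjusted p = 0.0575), without replicate 1 of that pool 0.11 (0.820) and without replicate 2 0.06 (0.894).

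Sin3b (ENSRNOG00000048622) had 97.1, 79.5 and 69.6 CPM with pool A and 51.5, 56.4 and 77.6 CPM with pool B. Pool B replicate 3 again reached into the range of pool A. On the log2 scale the fold change was 0.56 ± 0.20 (SE, edgeR adjusted p = 0.0263). The call was lost in 7 of 16 alternatives: with total counts alone (0.41, edgeR adjusted p = 0.111), against a 1.5-fold change (adjusted p = 0.578), at a threshold of 0.01, and on omitting pool A replicate 1 or 2 or pool B replicate 1 or 2 (adjusted p = 0.161, 0.0532, 0.128 and 0.0918). With pool A replicate 2 omitted the log2 fold change itself was 0.58.

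Of the histone-binding subunits, Rbbp7 passed the threshold and Rbbp4 did not. Rbbp7 (ENSRNOG00000005157) had 147, 199 and 205 CPM with pool A and 274, 310 and 271 CPM with pool B, and the pools did not overlap. It was the only one of the 9 tested members that passed in favour of pool B, with a log2 fold change of -0.49 ± 0.14 (SE, edgeR adjusted p = 0.00769). Without pool A replicate 1 the log2 fold change was -0.35 and the edgeR adjusted p 0.0767, and no member was then higher with pool B.

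Rbbp4 (ENSRNOG00000021492) was the member with the fewest counts, between 30 and 48 with pool A and between 14 and 21 with pool B. It had 11.7, 19.0 and 9.41 CPM with pool A and 7.16, 7.67 and 7.19 CPM with pool B. The pool A libraries were all above those of pool B, but they were spread widely. The log2 fold change of 1.01 ± 0.45 (SE) missed the threshold (edgeR adjusted p = 0.0744). It passed with upper-quartile factors (edgeR adjusted p = 0.0481), with a filter of 10 counts in each library (0.0310) and without pool A replicate 3 (0.0358). Without pool A replicate 2, its highest library, the log2 fold change was 0.67 (edgeR adjusted p = 0.365), and over all alternatives the adjusted p ran from 0.0310 to 0.365.

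CPM ranges of the pools did not overlap for 5 of the 9 members other than Sap30. These were Sap30l, Sap18, Hdac2 and Rbbp4 in favour of pool A and Rbbp7 in favour of pool B. Over all tested genes 49.1% had non-overlapping ranges, 18.9% in favour of pool A and 30.2% in favour of pool B.

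**Figure D2:**
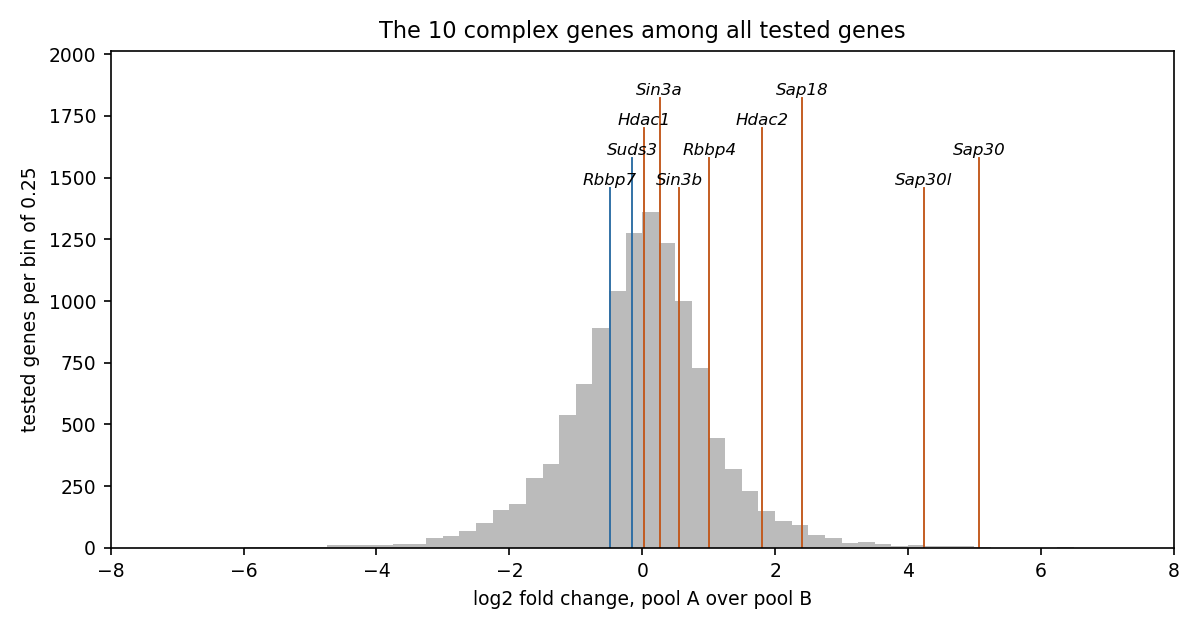
Number of tested genes (vertical axis) by log2 fold change of pool A over pool B in bins of 0.25 (grey), with lines at the values of the 10 complex genes. Sap30 at 5.07 and Sap30l at 4.24 lie in the right-hand tail, Sap18 and Hdac2 on its slope, and the other 6 between -0.49 and 1.01.

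The make-up of the complex transcripts was also compared as shares of their own summed counts, which needs no scaling between libraries. Sap30 held 25.8% ± 3.7 (SD, n = 3) of the counts of the 10 genes with pool A but 1.60% ± 0.59 (SD, n = 3) in the other pool. In single libraries its share was highest in pool A replicate 2, at 29.1% (95% Wilson interval 27.4% to 30.9%), and lowest in pool B replicate 3, at 0.990% (0.601% to 1.63%). Sap30l held 19.0% ± 2.4 (SD, n = 3) for pool A against 2.01% ± 0.32 (SD, n = 3) for pool B. The intervals cover counting error only, since no molecular identifiers are stated.

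Rbbp7 was the largest share with pool B. It held 54.4% ± 6.3 (SD, n = 3) of the counts of the 10 genes there and 19.8% ± 4.5 (SD, n = 3) with pool A. The share of Rbbp4 was nearly the same in both, at 1.40% ± 0.37 (SD, n = 3) for pool A against 1.40% ± 0.13 (SD, n = 3) for pool B. The 10 transcripts summed to 937 ± 103 CPM (SD, n = 3) for pool A against 526 ± 49 CPM (SD, n = 3) for pool B. These sums include Sap30, so the shares of the other genes move with it and were not tested.

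**Figure D3:**
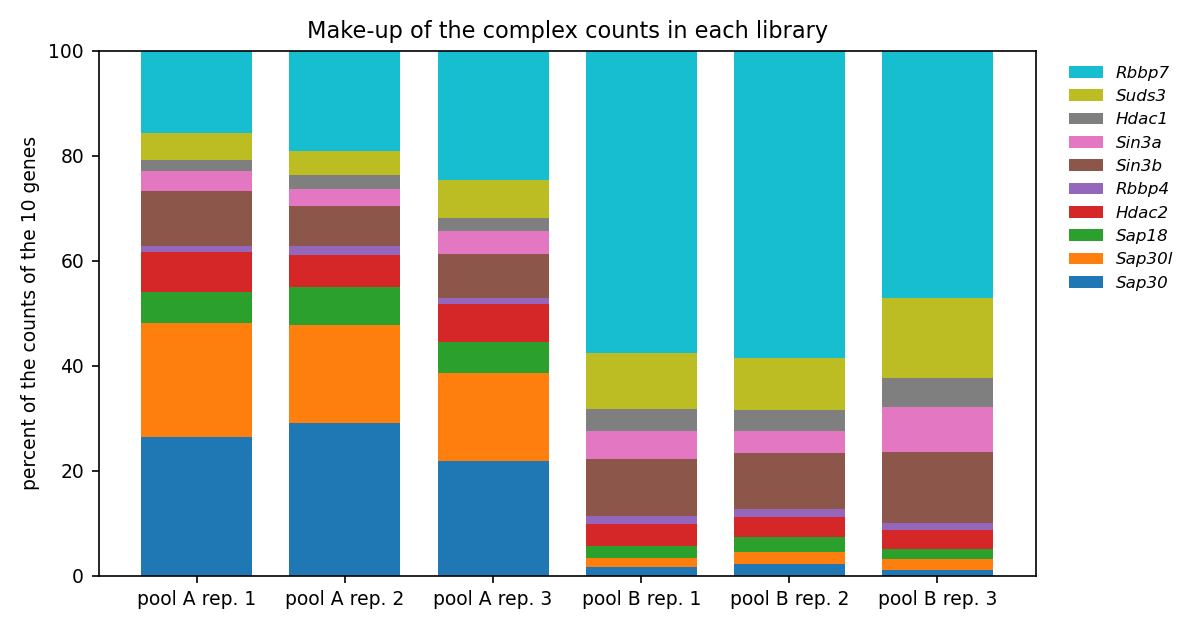
Percent of the summed counts of the 10 complex genes taken by each gene (stacked bars, 0 to 100%) in each of the 6 libraries. Sap30 fills between 21.8% and 29.1% and Sap30l between 16.9% and 21.5% of each pool A bar, and at most 2.17% and 2.27% of each pool B bar, where Rbbp7 fills between 47.2% and 58.5%.

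Paralogs within the complex were then compared by their log2 count ratio inside each library. Hdac1 over Hdac2 was -1.96, -1.11 and -1.52 with pool A replicates 1, 2 and 3 and 0.02, 0.04 and 0.60 with pool B. Hdac2 had more counts than Hdac1 in every pool A library, and with pool B the counts of both were nearly equal in replicates 1 and 2 and Hdac1 was ahead in replicate 3. The means differed by -1.75 between the pools. Rbbp4 over Rbbp7 was -3.64, -3.38 and -4.43 with pool A and -5.23, -5.29 and -5.20 with pool B, a difference of 1.42. For both pairs the exact two-sided permutation test gave p = 0.1, the smallest that 3 against 3 libraries allow, and 0.15 after adjustment over the 3 pairs tested.

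The scaffold ratio overlapped between the pools. Sin3a over Sin3b was -1.20 ± 0.27 (SD, n = 3) for pool A against -0.996 ± 0.326 (SD, n = 3) for pool B, a difference of -0.20 with an exact permutation p of 0.6. Sap30 over Sap30l, which was not tested, was 0.44 ± 0.18 (SD, n = 3) for pool A against -0.38 ± 0.60 (SD, n = 3) for pool B. Pool B replicate 3, with 15 counts of Sap30 and 32 of Sap30l, was the lowest at -1.07.

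**Figure D4:**
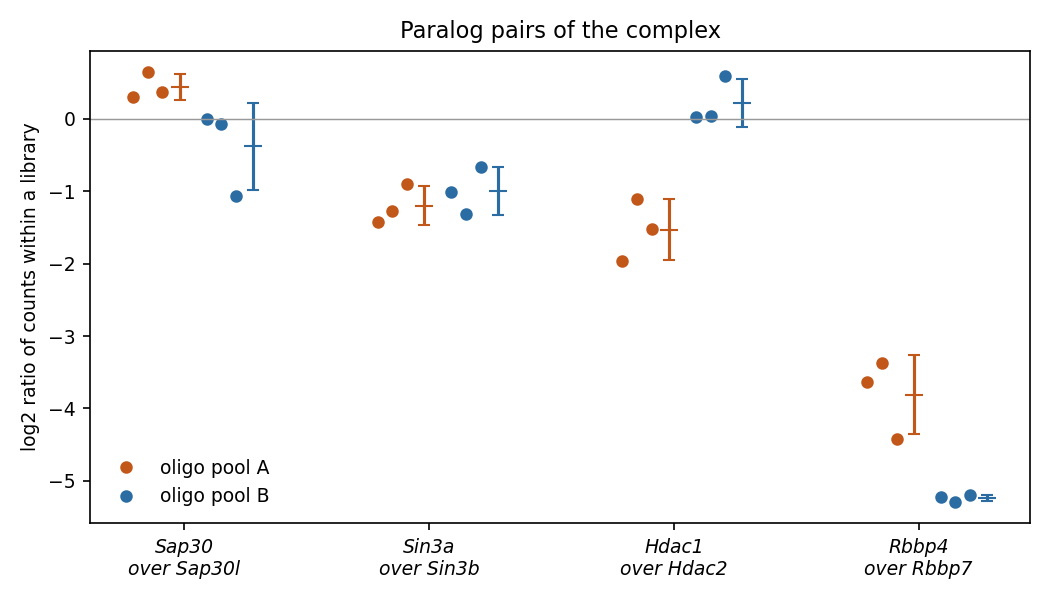
Log2 ratio of counts within a library for the 4 paralog pairs of the complex, with points for libraries and, beside them, the mean and SD of each pool (n = 3). The pools separate for Hdac1 over Hdac2 and for Rbbp4 over Rbbp7, and overlap for Sin3a over Sin3b.

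The rows next to each member in the count table were examined, since several are also its neighbours in the RefSeq gene list. Hmgb2, which encodes a chromatin protein of the high mobility group, is the row before Sap30. It had 895 ± 195 CPM (SD, n = 3) for pool A against 290 ± 19 CPM (SD, n = 3) for pool B, or 1.76 ± 0.14 as a log2 fold change (SE, edgeR adjusted p = 4.14e-11). In the RefSeq gene list no gene starts between this pair and their bodies do not overlap. On the other side of Sap30, Scrg1 had at most 1 count in any library.

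Of the other 8 tested neighbours 4 passed the threshold, beside 40.6% of all tested genes, and Marcks, Marcksl1, Lck and Sync did not. Zbtb8os, next to Rbbp4, was higher with pool A by 2.37 ± 0.27 (SE) on the log2 scale (edgeR adjusted p = 4.27e-08), a larger difference than that of Rbbp4. Nwd1, after Sin3b, had a log2 fold change of 2.35 ± 0.52 (SE, edgeR adjusted p = 5.45e-04), on 10, 1 and 17 counts with pool B. Without pool B replicate 2 its log2 fold change was 1.93, and without replicate 3 of that pool 3.08. Man2c1, after Sin3a, went the other way with -1.49 ± 0.18 (SE, edgeR adjusted p = 1.20e-07). Txlng, before Rbbp7, had 0.69 ± 0.27 (SE, edgeR adjusted p = 0.0440), a call that was lost in 12 of 16 alternatives. Marcks, before Hdac2, had a log2 fold change of 0.06 ± 0.30 (SE), while Sap30l and Sap18 lay between rows with at most 3 counts in any library.

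Maea, Atad2, Snrpg and Pald1 were the 4 genes whose pattern over the 6 libraries was closest to that of Sap30. Likeness was the Euclidean distance between log2 CPM values centred on each gene, which was 0.55 for Maea and 0.81 for Atad2 and 0.87 for Snrpg and Pald1. Sap30l was thirteenth of 10784 genes by this measure, at 1.28, and Sap18 and Hdac2 were at ranks 155 and 376. With the Pearson correlation as the measure, none of those 4 genes was among the closest 5, which had r of 0.998 in each case. All these values share the difference between the pools, and 6 libraries leave little else to rank by.

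Further genes came from 9 lists of deacetylase complexes, other deacetylases, Sin3-recruiting factors, Sap18 partners and other complexes with Rbbp4 or Rbbp7. Of 96 names, 92 were in the table on 94 rows, and 85 of these were tested. With pool A, 18 (21.2%) were higher, and with pool B 27 (31.8%), against 18.6% and 22.0% of all tested genes. Their median log2 fold change was 0.05. A test against a 1.5-fold change left 13 and 15 of them, and 1156 and 1521 of all 11582 tested genes.

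Further subunits of the Sin3 complex included large differences in both directions. Of 18 tested, 2 (11.1%) were higher with pool A and 7 (38.9%) lower, beside 18.6% and 22.0% of all tested genes, with a median log2 fold change of -0.13. Ing1, a PHD finger protein that reads methylated histone H3, had 750 ± 64 CPM (SD, n = 3) for pool A against 88.2 ± 11.5 CPM (SD, n = 3) for pool B, or 3.24 ± 0.15 as a log2 fold change (SE, edgeR adjusted p = 9.80e-16). Its relative Ing2 had 61.4 ± 7.7 CPM (SD, n = 3) and 134 ± 10 CPM (SD, n = 3) in the same order, a log2 fold change of -0.97 ± 0.17 (SE, edgeR adjusted p = 4.02e-05). Ogt, which adds N-acetylglucosamine to nuclear proteins, was higher with pool A by 1.56 ± 0.16 (SE, edgeR adjusted p = 1.02e-08). Tet1, which oxidises methylated cytosine, and Brms1l had log2 fold changes of -1.31 ± 0.24 and -2.03 ± 0.47 (SE), Brms1l on pool A counts of 10, 7 and 23. The Brms1l name is carried by a further row that was not tested.

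The NuRD complex shares Hdac1, Hdac2, Rbbp4 and Rbbp7 with Sin3. Of its 11 other genes, 3 (27.3%) were higher with pool A and 5 (45.5%) lower, beside 18.6% and 22.0% of all tested genes, with a median of -0.37. The remodelling ATPases Chd5 and Chd4 had log2 fold changes of 2.86 ± 0.14 and 0.86 ± 0.13 (SE), and the linker subunit Gatad2a 2.68 ± 0.14 (SE). The methyl-CpG binding protein Mbd2 and the scaffolds Mta1 and Mta2 had -1.94 ± 0.17, -1.54 ± 0.16 and -0.95 ± 0.16 (SE).

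Of 12 tested genes of other complexes that hold Rbbp4 or Rbbp7, 3 (25.0%) were higher with pool A and 4 (33.3%) lower, beside 18.6% and 22.0% of all tested genes. Ezh2, the methyltransferase of Polycomb repressive complex 2, had 874 ± 46 CPM (SD, n = 3) for pool A against 73.6 ± 7.5 CPM (SD, n = 3) for pool B. On the log2 scale the fold change was 3.71 ± 0.15 (SE, edgeR adjusted p = 3.95e-17). Eed, which binds Ezh2 in the same complex, had 59.1 ± 11.1 CPM (SD, n = 3) for pool A against 214 ± 13 CPM (SD, n = 3) for pool B, or -1.71 ± 0.17 as a log2 fold change (SE, edgeR adjusted p = 2.29e-09). Hat1, which acetylates new histone H4, had 1.88 ± 0.36 (SE) and the chromatin assembly subunit Chaf1a -1.17 ± 0.16 (SE). Lin37 and Lin9, subunits of the cell cycle complex MuvB, had 1.27 ± 0.22 and -1.89 ± 0.25 (SE).

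Of the other deacetylases, sirtuins included, 10 were tested. With pool A 1 (10%) was higher and 6 (60%) were lower, beside 18.6% and 22.0% of all tested genes. The median log2 fold change was -0.81. The 6 were Hdac11 and every tested sirtuin, and the tested Hdac genes other than Hdac5 and Hdac11 did not pass. Hdac5, a class II deacetylase, was the one higher with pool A, by 1.65 ± 0.16 (SE, edgeR adjusted p = 1.30e-09). The sirtuins Sirt3 and Sirt2 had log2 fold changes of -2.73 ± 0.28 and -1.75 ± 0.20 (SE), and Hdac11 -1.27 ± 0.18 (SE).

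In the CoREST complex 3 of 9 tested rows (33.3%) were higher with pool A, beside 18.6% of all tested genes, and the other 6 did not pass. The 3 were Hmg20b, with a log2 fold change of 0.71 ± 0.18 (SE, edgeR adjusted p = 0.00267), and both rows named Rcor1, the corepressor itself, with 0.79 ± 0.28 and 1.82 ± 0.61 (SE). In the nuclear receptor corepressor complex the deacetylase Hdac3 was higher with pool A by 0.76 ± 0.21 (SE). Its partners Gps2 and Tbl1x were higher with pool B, with -1.04 ± 0.17 and -0.71 ± 0.15 (SE). In the mitotic deacetylase complex Trerf1 was higher with pool A by 1.70 ± 0.16 (SE), and Dnttip1 and Elmsan1 had -0.76 ± 0.17 and -0.47 ± 0.16 (SE).

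Of 13 tested factors that bring Sin3 to DNA, 2 (15.4%) were higher with pool A and 1 (7.69%) lower, beside 18.6% and 22.0% of all tested genes. Yy1, a zinc finger factor, had a log2 fold change of 1.73 ± 0.18 (SE, edgeR adjusted p = 5.44e-09). Max, the common partner of the Myc and Mxd families, had 1.20 ± 0.29 (SE), and its repressive partner Mxd4 -0.73 ± 0.22 (SE). Of the 3 partners of Sap18 in the ASAP and PSAP complexes, Pnn was higher with pool A by 0.95 ± 0.14 (SE, edgeR adjusted p = 4.38e-06). Rnps1 and Acin1 did not pass, with -0.20 ± 0.16 and -0.27 ± 0.13 (SE).

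**Figure D5:**
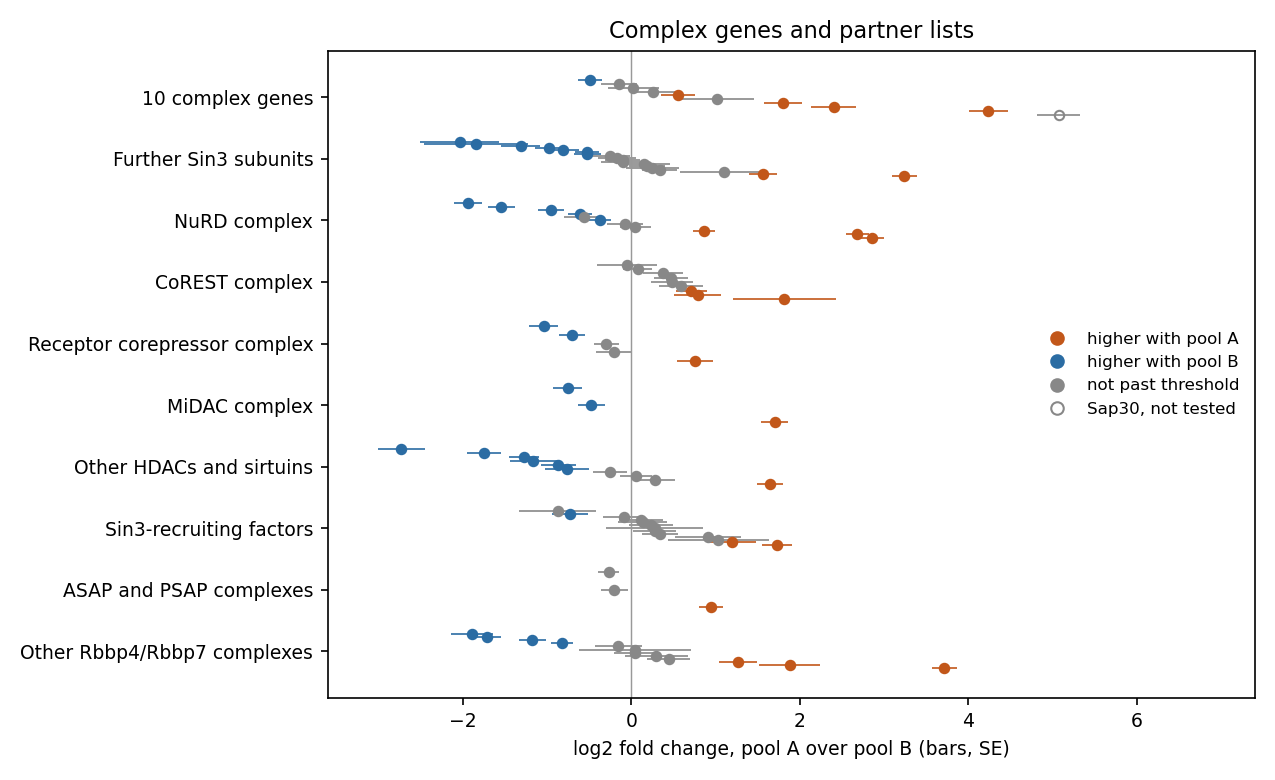
Log2 fold change of pool A over pool B with its SE (bars) for the 10 complex genes and tested genes of 9 partner lists, coloured by the side on which they passed the edgeR threshold. Most lists hold genes on both sides, and the largest values after Sap30 and Sap30l belong to Ezh2 and Ing1.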

How the data were processed

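The authors deposited raw counts per gene for 6 pull-down libraries, with Ensembl identifiers and gene names. STAR and featureCounts are named, per the submitters' processing notes. Their versions and settings, the genome build and the treatment of reads shared by gene copies are not given in the sources used here, and strand-specific paired libraries are stated per the labels' protocols. A further column per pool holds the deposited mean and was not used.

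Pool A was set against pool B in edgeR 4.0.16 (R 4.3.3), using TMM scaling, edgeR's expression filter, the quasi-likelihood test on all 6 libraries and Benjamini-Hochberg adjustment over 11582 genes. Each SE is the fold change divided by the root of the F statistic. The test was tested on simulated data. Ratios used counts plus 0.5. Alternatives were other scalings, filters and thresholds, DESeq2 1.42.0, limma-voom (limma 3.58.1), a test against a 1.5-fold change, a replicate block and each library left out.

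The genes and lists were chosen with earlier results of these data known. All 10 members were named. Of each list, up to 3 genes per direction were named, by fold change among those past the threshold with non-overlapping CPM ranges and a mean of at least 10 counts. Table neighbours of Sap30, other neighbours past the threshold and, of the 5 genes most like Sap30, the first 4 were named too. Results for some genes that met these rules are not reported here. Rnps1, Acin1, Marcks, Marcksl1, Lck and Sync were named after their values were seen. RefSeq tables (GRCr8) gave upstream sequences and gene order only.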

Additional observations from a re-analysis of the deposited data

How the results depend on the processing

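The direction of Sap30, Sap30l, Sap18 and Hdac2 held in every alternative run, with log2 fold changes of 4.86 to 5.30, 4.03 to 4.44, 2.19 to 2.59 and 1.65 to 1.91, and the last 3 kept their calls. Of the 9 tested members, between 3 and 5 were higher with pool A when a library was left out, and 0 or 1 with pool B. The test against a 1.5-fold change left 0 members and 15 partner genes higher with pool B, by its own construction stricter. With a library omitted, partner genes higher with pool A numbered 17 to 20 and those higher with pool B 23 to 26. The sign of Hdac1 was reversed with total counts alone (-0.13), in limma-voom (-0.0198), and on omitting replicate 2 of pool A (-0.19) or replicates 1 (-0.11) or 2 (-0.07) of pool B, with a range of -0.19 to 0.28 over omitted libraries. That of Suds3 turned without pool B replicate 3 (0.16), with a range of -0.30 to 0.16; the cause was not tested. The paralog differences ranged from -1.96 to -1.53 for Hdac1 over Hdac2, from 1.21 to 1.73 for Rbbp4 over Rbbp7, from -0.36 to -0.04 for Sin3a over Sin3b and from 0.471 to 1.005 for Sap30 over Sap30l when a library was left out. Of 637 refits of 40 neighbours and partner genes, 602 kept direction and call and 35 lost the call. All 40 were already past the threshold in the fit used here, the partner genes by selection, so no call could be gained. Libraries of equal number shared almost no deviation from their pool (r = 0.0409, -0.0195 and 0.0200), and no pairing was assumed. With the replicate block, the calls were 4 members and 18 partner genes for pool A, and 1 and 26 for pool B, the change being the loss of Brms1 (edgeR adjusted p = 0.0959); the neighbour Txlng was lost too (0.0711). Rbbp4 had the fewest counts of the members.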
